A study of Rattus norvegicus with 9 samples.

Results

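The growth hormone and IGF1 axis of the liver was followed through 10 genes, Ghr, Stat5b, Socs2, Igf1, Igfals, Igfbp1, Igfbp2, Igfbp3, Igfbp4 and Igfbp7. They were chosen by symbol from the 32883 genes of the deposited tables, each symbol matched 1 gene, and all 10 were abundant enough to be tested. The values are bulk RNA-seq of 9 livers of male Sprague-Dawley rats aged 8 to 11 weeks, 3 livers in each of 3 groups. Normal livers came from rats whose handling the labels give only as normal. Both other groups had acute-on-chronic liver failure (ACLF), made by 21 days of bile duct ligation (BDL) followed by intraperitoneal lipopolysaccharide (LPS) at 0.25 mg/kg, and 2 h of whole-blood extracorporeal circulation started after the LPS. In the empty group, whose livers are called empty livers here, the circuit held neither cells nor adsorbent beads. In the UTOpiA group it held, in series, cellulose acetate beads that remove granulocytes and monocytes and alginate-encapsulated hepatocyte-like organoids made from human induced pluripotent stem cells, so these components were tested together and not apart. ACLF livers were collected 24 h after LPS from rats still alive at that time. No group of this series had BDL without LPS, LPS without BDL, or either without the circulation. No normal rat is labelled as having had the circulation. In comparisons with normal livers, the 2 insults and the circulation therefore cannot be told apart.

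Growth hormone from the pituitary binds its receptor, Ghr, on hepatocytes, where the kinase Jak2 and the transcription factor Stat5b carry the signal to genes such as Igf1, Igfals and Socs2. Circulating IGF1 is made mainly by the liver and travels bound to IGF-binding proteins, most of it in a complex with Igfbp3 and the acid-labile subunit encoded by Igfals. Igfbp1 is a short-lived binding protein of hepatocytes that rises in fasting, low insulin, inflammation and liver injury, and a liver that stops answering growth hormone is known as growth hormone resistant.

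In empty livers the receptor transcript Ghr and the secreted products Igf1 and Igfals were lower than in normal livers, and Igfbp1 was far higher. By edgeR, Ghr was 3.94-fold lower, Igf1 3.18-fold lower, Igfals 11.5-fold lower, Igfbp1 196-fold higher and Igfbp7 7.29-fold higher. Calls were made at an adjusted p under 0.05 and a change over 2-fold. Of the 10 genes, 3 were thus called lower and 2 higher, while 11.1% of the 14089 genes tested were called lower and 20.7% higher. In the UTOpiA group against normal livers, 1 of the 10 was called lower (Ghr) and 2 higher (Igfbp1 and Igfbp7), with a background of 6.81% lower and 18.2% higher. Over the 10 genes the median log2 fold change was 0.10 for the empty group and 0.30 for the UTOpiA group against normal livers, beside 0.04 and 0.05 over all genes. On normalised CPM, 3 genes lay lower and 3 higher without overlap in empty livers against normal livers, beside 28.8% and 32.4% of all genes, and again 3 and 3 in UTOpiA livers, beside 26.1% and 30.8%.

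Between the UTOpiA and empty groups none of the 10 genes was called by edgeR, with a background of 0% of genes called. At an unadjusted p under 0.05, 3 of the 10 passed (Igf1, Igfbp1 and Igfbp3), against 10.3% of all genes, and the smallest adjusted p of any gene was 0.170. DESeq2 called 53 genes higher (0.376%) and 71 lower (0.504%) in this comparison and none of the 10. The paper, which used DESeq2 at the same thresholds, reports more genes in each direction, and the reason was not tested. Exact permutation tests on TPM, 30 over the 10 genes and 3 comparisons, had 0.1 as their smallest possible p, and the lowest was 0.2 after adjustment over the 30. Both ACLF comparisons with normal livers share the 3 normal livers, and each group enters 2 comparisons, so their fold changes are not independent.

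Between 14241172 and 17321677 reads were counted per library. Of those reads, 13.3% to 14.9% were albumin in normal livers, 1.58% to 3.91% in empty livers and 1.54% to 3.59% in UTOpiA livers, and the 10 genes together took 0.222% to 0.451% over all 9 livers. TPM is a level scaled by gene length and library total, so it moves with the make-up of the library. Fold changes were therefore taken from counts with TMM normalisation, also given as normalised CPM (counts scaled by the TMM-corrected library total). With library totals in place of TMM the median log2 fold change of all genes moved from 0.04 to 0.60 in empty livers against normal livers, and the part of albumin in that shift was not tested. The defining hepatocyte genes were present in every liver, with 6 of 12 called lower in empty livers and 3 of 12 in UTOpiA livers against normal livers, beside 11.1% and 6.81% of all genes. Summed TPM of those 12 was 174545 to 190255 in normal livers, 40802 to 80784 in empty livers and 45524 to 75961 in UTOpiA livers. Albumin alone averaged 119226, 20100 and 23273 TPM in the same order. Within the ACLF groups, replicate 2 of the empty group had the highest albumin share of its group and replicate 2 of the UTOpiA group the lowest of its own, and both stood apart for several of the 10 genes. Of the markers of other cells, 6 of 6 for cholangiocytes, 6 of 6 for neutrophils, 6 of 8 for macrophages, 4 of 6 for lymphocytes and 2 of 3 for erythroid cells were called higher in empty livers, and 6, 6, 5, 4 and 2 in UTOpiA livers, where 20.7% and 18.2% of all genes were. The third erythroid marker, Slc4a1, went the other way and was called lower in empty livers (-1.44, edgeR adjusted p = 0.0244). The part of these cells in the results was not tested. In bulk liver, fewer hepatocytes and less RNA per hepatocyte cannot be told apart. Nor did the 12 hepatocyte markers fall alike, with log2 fold changes in empty livers from -3.08 (Alb) to -0.05 (Asgr1).

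**Figure D1:**
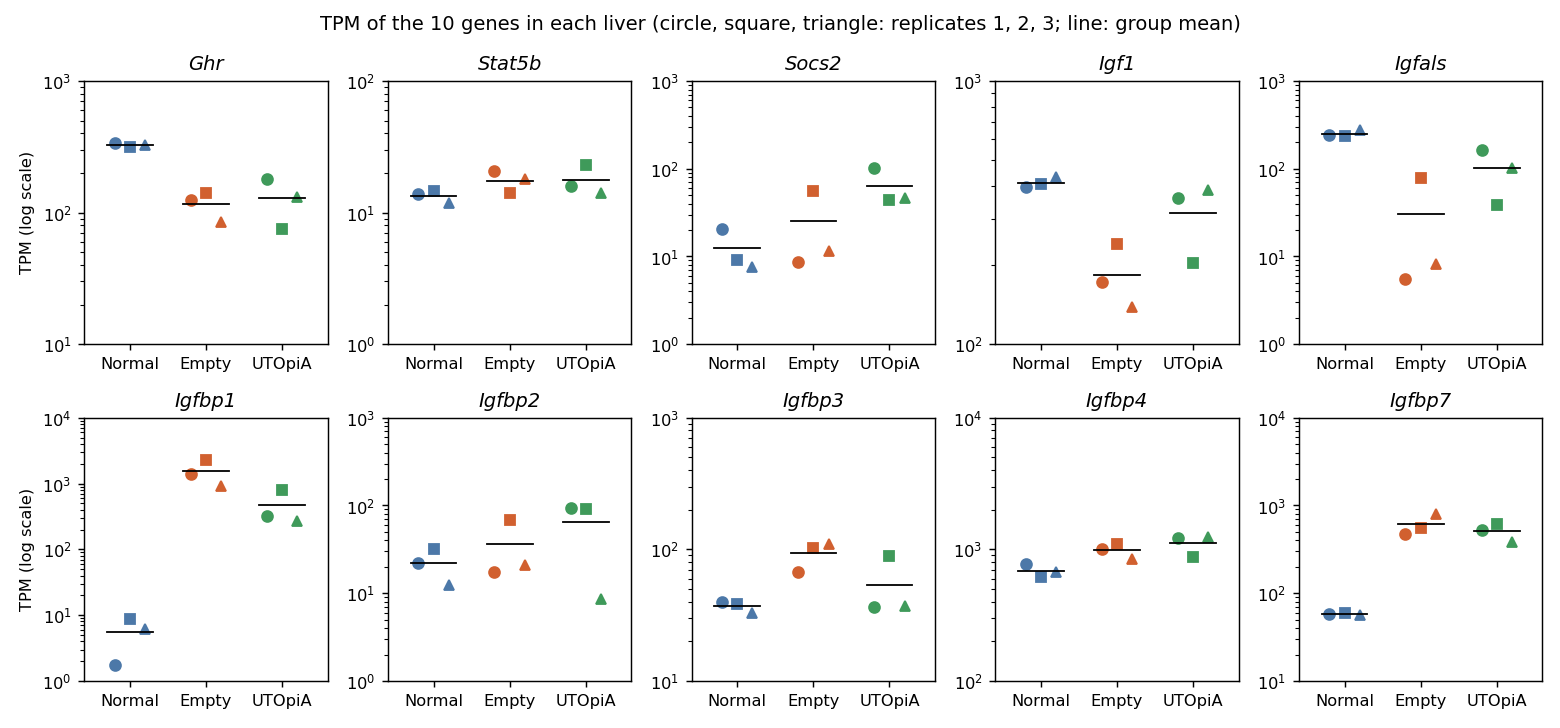
TPM (log axis) of the 10 genes in each of the 9 livers, with circle, square and triangle for replicates 1, 2 and 3 and a line at the group mean. Igfbp1 lies below 10 TPM in the normal livers and between 268 and 2294 TPM in the ACLF livers, while Igfals spreads from 5.54 to 78.6 TPM among empty livers.

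Ghr, the growth hormone receptor (chr2:53150370-53413638, minus strand, rn6 per the submitters' processing notes), measured 336, 313 and 324 TPM in normal livers, 125, 141 and 85.6 TPM in empty livers and 180, 74.5 and 132 TPM in UTOpiA livers. Every ACLF liver lay below every normal liver, and the ACLF groups overlapped. The log2 fold change was -1.98 ± 0.39 (SE, edgeR adjusted p = 0.00273) in empty livers and -1.60 ± 0.38 (edgeR adjusted p = 0.00961) in UTOpiA livers against normal livers. Between the ACLF groups the difference was 0.38 on the log2 scale, with a 95% interval from -0.46 to 1.21 (edgeR adjusted p = 0.759). Most hepatocyte markers were lower as well, but not alike. On the log2 scale Alb, Apob and Asgr1 stood at -3.08, -0.36 and -0.05 in empty livers against normal livers. In UTOpiA livers they stood at -2.61, 0.16 and 0.26. The median log2 CPM of all 12 markers lay 0.91 to 1.43 below the normal mean in empty livers and 0.47 to 1.12 below it in UTOpiA livers. Relative to that median in the same liver, Ghr stood at a mean log2 difference from normal livers of -0.91 in empty livers and -1.03 in UTOpiA livers. The part of hepatocyte content in the result was not tested.

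Stat5b, the transcription factor that Ghr activates (chr10:88686207-88754829, minus strand), overlapped among all groups, at 26.1, 26.8 and 22.2 normalised CPM in normal livers, 28.5, 18.7 and 21.6 in empty livers and 23.3, 28.8 and 26.0 in UTOpiA livers. Its log2 fold change was -0.13 in empty livers (95% interval -0.52 to 0.27) and 0.06 in UTOpiA livers (-0.34 to 0.45) against normal livers, and a change of 2-fold either way lay outside both intervals. With library totals in place of TMM the first value was 0.42. Stat5b activity depends on phosphorylation, which RNA does not measure.

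Socs2, a feedback inhibitor of the growth hormone receptor and itself a Stat5b target (chr7:36495480-36499784, minus strand), measured 20.7, 9.10 and 7.68 TPM in normal livers, 8.68, 55.4 and 11.5 TPM in empty livers and 102, 44.1 and 46.8 TPM in UTOpiA livers. The UTOpiA livers lay above all normal livers and the empty group spanned both. Against normal livers the UTOpiA group differed by 2.05 ± 0.75 on the log2 scale, just short of the call (edgeR adjusted p = 0.0586), and DESeq2 did call it (adjusted p = 0.00797, with 19.4% of genes called higher by that tool). The empty group stood at 0.50 against normal livers, which turned to -0.85 without its replicate 2 (edgeR adjusted p = 0.222), and without that liver the UTOpiA difference from normal livers was called (edgeR adjusted p = 0.00939). UTOpiA and empty livers differed by 1.55 (95% interval -0.12 to 3.22, edgeR adjusted p = 0.507), and 2.90 without replicate 2 of the empty group (edgeR adjusted p = 0.0774).

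Igf1, the secreted growth factor of the axis (chr7:28412198-28486609, plus strand), measured 396, 406 and 433 TPM in normal livers, 172, 241 and 139 TPM in empty livers and 360, 203 and 384 TPM in UTOpiA livers. On TPM, UTOpiA replicates 1 and 3 came close to the normal range while replicate 2 fell within that of the empty group. On normalised CPM the UTOpiA livers stood at 379, 182 and 513 beside 534 to 589 in normal livers, so that only replicate 3 was close. The log2 fold change of the empty group against normal livers was -1.67 ± 0.37 (edgeR adjusted p = 0.00506). The UTOpiA group stood at -0.63 ± 0.36 against normal livers, not called (edgeR adjusted p = 0.194, 95% interval -1.44 to 0.18). The direct difference between the ACLF groups was 1.04 ± 0.36, 2.06-fold (95% interval 0.23 to 1.86), and missed the call (edgeR adjusted p = 0.405). Without replicate 2 of the UTOpiA group that difference was 1.36 (edgeR adjusted p = 0.0664). Relative to the hepatocyte markers of the same liver, the mean log2 difference of Igf1 from normal livers was -0.61 in empty livers and -0.04 in UTOpiA livers.

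Igfals, the acid-labile subunit that holds IGF1 and Igfbp3 in the circulating complex (chr10:14240219-14243597, plus strand), measured 242, 234 and 273 TPM in normal livers, 5.54, 78.6 and 8.23 TPM in empty livers and 164, 39.0 and 103 TPM in UTOpiA livers. It had the widest spread among empty livers relative to its level among the 10 genes, with an SD of 41.4 TPM around a mean of 30.8 TPM (n = 3). All ACLF livers lay below all normal livers, and the ACLF groups overlapped only through replicate 2 of each. The log2 fold change of the empty group against normal livers was -3.53 ± 1.04 (edgeR adjusted p = 0.0212). That call was lost without replicate 3 of the empty group (-3.07, edgeR adjusted p = 0.0530), and the value was -5.73 without replicate 2 (edgeR adjusted p = 0.000486). The UTOpiA group stood at -1.54 against normal livers (edgeR adjusted p = 0.230), a difference that was called when replicate 2 of the empty group was left out of the shared estimate of spread (-1.54, edgeR adjusted p = 0.0349). Against the empty group it stood at 1.98 (95% interval -0.23 to 4.20, edgeR adjusted p = 0.522), or 4.19 without replicate 2 of the empty group (edgeR adjusted p = 0.0540). Relative to hepatocyte markers, the mean log2 difference of Igfals from normal livers was -3.42 in empty livers and -1.12 in UTOpiA livers.

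Igfbp3, the main carrier of IGF1 in plasma, made in liver largely by non-parenchymal cells (chr14:87457647-87465374, minus strand), measured 39.6, 38.7 and 33.0 TPM in normal livers, 67.4, 103 and 109 TPM in empty livers and 36.2, 88.7 and 37.1 TPM in UTOpiA livers. Empty livers lay above all normal livers, and in UTOpiA livers only replicate 2 did so. The empty group exceeded normal livers by 0.80 ± 0.26 on the log2 scale (edgeR adjusted p = 0.0302), under the 2-fold needed for a call. With library totals in place of TMM it stood at 1.36 and was called. Over 20 alternatives it ran from 0.70 to 1.36, stayed uncalled in 15 and was called in the others. The UTOpiA group stood at 0.16 against normal livers (edgeR adjusted p = 0.650) and at -0.64 against the empty group (95% interval -1.22 to -0.05, edgeR adjusted p = 0.455). Of the 3 transcripts of the circulating complex, Igf1 and Igfals were thus called lower in empty livers and Igfbp3 was not.

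Igfbp1 (chr14:87448692-87453785, plus strand) lies 3861 bp from Igfbp3, the 3′ ends facing each other. It measured 1.72, 8.77 and 6.08 TPM in normal livers, 1399, 2294 and 911 TPM in empty livers and 322, 805 and 268 TPM in UTOpiA livers. The 3 groups were fully separated in that order, the UTOpiA livers between the others. The log2 fold change against normal livers was 7.61 ± 0.75 in empty livers (edgeR adjusted p = 0.000139) and 5.99 ± 0.70, or 63.7-fold, in UTOpiA livers (edgeR adjusted p = 0.000425). UTOpiA livers were 3.08-fold lower than the empty group, -1.62 ± 0.57 on the log2 scale (95% interval -2.91 to -0.33). That difference was not called by edgeR (adjusted p = 0.408), and its lowest adjusted p over 20 alternatives was 0.109, by DESeq2. An exact permutation test on TPM gave p = 0.1, the smallest possible with 3 livers against 3. Igfbp1 was the only 1 of the 10 whose normalised CPM did not overlap between the ACLF groups, where 5.97% of all genes tested were non-overlapping in that direction.

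The promoters of Igfbp1, Igf1 and Igfals are shown because these are the hepatocyte products called in empty livers. They are the 250 bases before the annotated start in RefSeq (GRCr8), written 5′ to 3′ on the gene's strand, at chr14:86261027-86261276, chr7:24172282-24172531 and chr10:14403600-14403849. Capitals mark the letters CAAAACA, the core of the insulin response element known from Igfbp1, searched on both strands.
Igfbp1: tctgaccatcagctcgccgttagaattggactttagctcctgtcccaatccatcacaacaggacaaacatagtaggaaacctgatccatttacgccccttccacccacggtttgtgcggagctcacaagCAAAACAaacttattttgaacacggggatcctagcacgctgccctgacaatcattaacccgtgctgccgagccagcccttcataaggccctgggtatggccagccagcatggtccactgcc
Igf1: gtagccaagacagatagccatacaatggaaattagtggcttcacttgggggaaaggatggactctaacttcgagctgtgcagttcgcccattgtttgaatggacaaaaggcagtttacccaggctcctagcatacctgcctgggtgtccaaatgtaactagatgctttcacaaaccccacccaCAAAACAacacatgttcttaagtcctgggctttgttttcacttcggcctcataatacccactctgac
Igfals: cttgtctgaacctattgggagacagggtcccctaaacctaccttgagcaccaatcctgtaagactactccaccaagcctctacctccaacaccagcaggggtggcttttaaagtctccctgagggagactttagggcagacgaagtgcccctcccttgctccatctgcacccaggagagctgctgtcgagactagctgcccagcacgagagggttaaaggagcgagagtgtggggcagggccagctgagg
Igfbp1 held the core 121 bases and Igf1 67 bases before the start, and Igfals did not hold it in this window. Of 33469 rat promoters of that length, 5.46% held CAAAACA. Promoters were found for 9 of the 10 genes, all but Socs2, and no other member held this core. The paired half-sites TTCNNNGAA bound by STAT5 were in none of the 9 windows and in 7.67% of all promoters. The hypoxia core ACGTG, in 16.6% of all promoters, was in those of Igfbp2, Igfbp7 and Stat5b. These are matches of letters only, and no binding was measured.

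The balance between Igfbp1 and its ligand was read within each liver, where scaling between libraries plays no part. The ratio of Igfbp1 to Igf1 TPM was 0.00433, 0.0216 and 0.0140 in normal livers, 8.11, 9.54 and 6.55 in empty livers and 0.893, 3.96 and 0.697 in UTOpiA livers. Igfbp1 thus exceeded Igf1 in all 3 empty livers and in 1 of 3 UTOpiA livers. The ratio was 727-fold higher in empty livers than in normal livers and 123-fold higher in UTOpiA livers. It was 5.90-fold lower in UTOpiA than in empty livers. On the log2 scale these differences were 9.51, 6.95 and -2.56, and single livers moved each by over 1.5-fold. The first was 8.84 without normal replicate 1, the second 6.28 without that liver and 6.17 without UTOpiA replicate 2, and the third -3.34 without UTOpiA replicate 2. No livers overlapped in any of these comparisons, and the exact permutation test gave p = 0.1 for each, the smallest it can give.

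**Figure D2:**
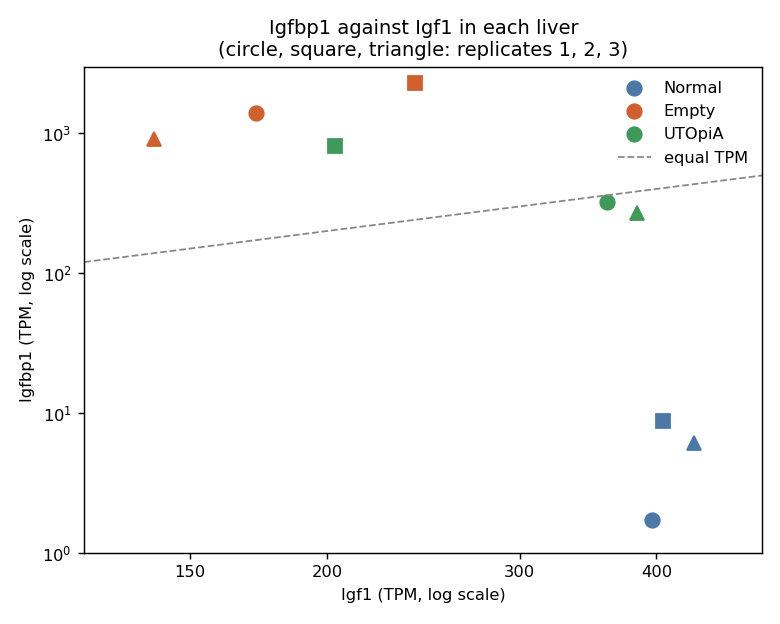
Igfbp1 against Igf1 TPM (both axes logarithmic) in each liver, coloured by group, with circle, square and triangle for replicates 1, 2 and 3 and a dashed line at equal TPM. All 3 empty livers and replicate 2 of the UTOpiA group lie above the line, the other 2 UTOpiA livers lie just below it with ratios of 0.893 and 0.697, and normal livers lie far below it.

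Igfbp7, a binding protein of low affinity for IGF made by endothelial and stellate cells (chr14:33010300-33070190, plus strand), measured 58.1, 59.0 and 56.0 TPM in normal livers, 471, 552 and 808 TPM in empty livers and 521, 615 and 388 TPM in UTOpiA livers. All ACLF livers lay above all normal livers, and the ACLF groups overlapped. The log2 fold change against normal livers was 2.87 ± 0.20 in empty livers (edgeR adjusted p = 4.24e-05) and 2.80 ± 0.20 in UTOpiA livers (edgeR adjusted p = 7.02e-05). From the empty to the UTOpiA group it was -0.07, with a 95% interval from -0.48 to 0.34 that leaves out a change of 2-fold. Most stellate cell and fibroblast markers were higher too. Of 8, 6 were called higher in empty livers and 7 in UTOpiA livers, beside 20.7% and 18.2% of all genes. Lrat went the other way, uncalled, at -1.13 in empty and -0.53 in UTOpiA livers on the log2 scale. Lum was called in UTOpiA livers with replicate 2 at 5.51 from the normal mean on log2 CPM, beside 1.11 and -0.34. The 8 together summed to 105 to 116 TPM in normal livers, 859 to 1058 in empty and 449 to 1049 in UTOpiA livers. Among empty livers that sum was 1058, 859 and 961 TPM in replicate order and did not follow Igfbp7. Of 8 endothelial markers, 1 was called higher and 1 lower in each ACLF group, near the background (11.1% of all genes were lower in empty and 6.81% in UTOpiA livers), with summed TPM of 91.0 to 104 in normal livers, 82.5 to 155 in empty livers and 88.9 to 113 in UTOpiA livers. The part of stellate cell content in the Igfbp7 and Igfbp3 results was not tested. The row of Igfbp7 overlaps genes on the other strand, and use of strand in the counting is not given in the sources used here.

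Igfbp4, which binds IGF and restrains its action (chr10:86950557-86962578, plus strand), was the most abundant of the 10 genes in normal livers by TPM. It measured 767, 618 and 668 TPM in normal livers, 1002, 1097 and 845 in empty livers and 1229, 875 and 1247 in UTOpiA livers. On normalised CPM the groups overlapped, at 1169, 924 and 1027 in normal livers against 1128, 1179 and 830 in empty livers. The edgeR log2 fold change was 0.01 in empty livers (95% interval -0.67 to 0.69) and 0.44 in UTOpiA livers (-0.24 to 1.12) against normal livers. The separation of the empty group from normal livers in TPM was thus not kept on the TMM scale.

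Igfbp2, a binding protein known to rise in fasting (chr9:80118029-80144789, plus strand), measured 22.4, 31.9 and 12.4 TPM in normal livers, 17.6, 69.0 and 21.1 TPM in empty livers and 94.1, 90.6 and 8.56 TPM in UTOpiA livers. Its spread within groups was wide and all groups overlapped. No comparison was called, with log2 fold changes of 0.19 (empty against normal), 1.11 (UTOpiA against normal) and 0.92 (UTOpiA against empty), each with a 95% interval that includes 0. Without replicate 2 of the empty group the first of these turned to -0.73 (edgeR adjusted p = 0.472). The third ran from 0.46 to 1.84 over 20 alternatives and was called in none.

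**Figure D3:**
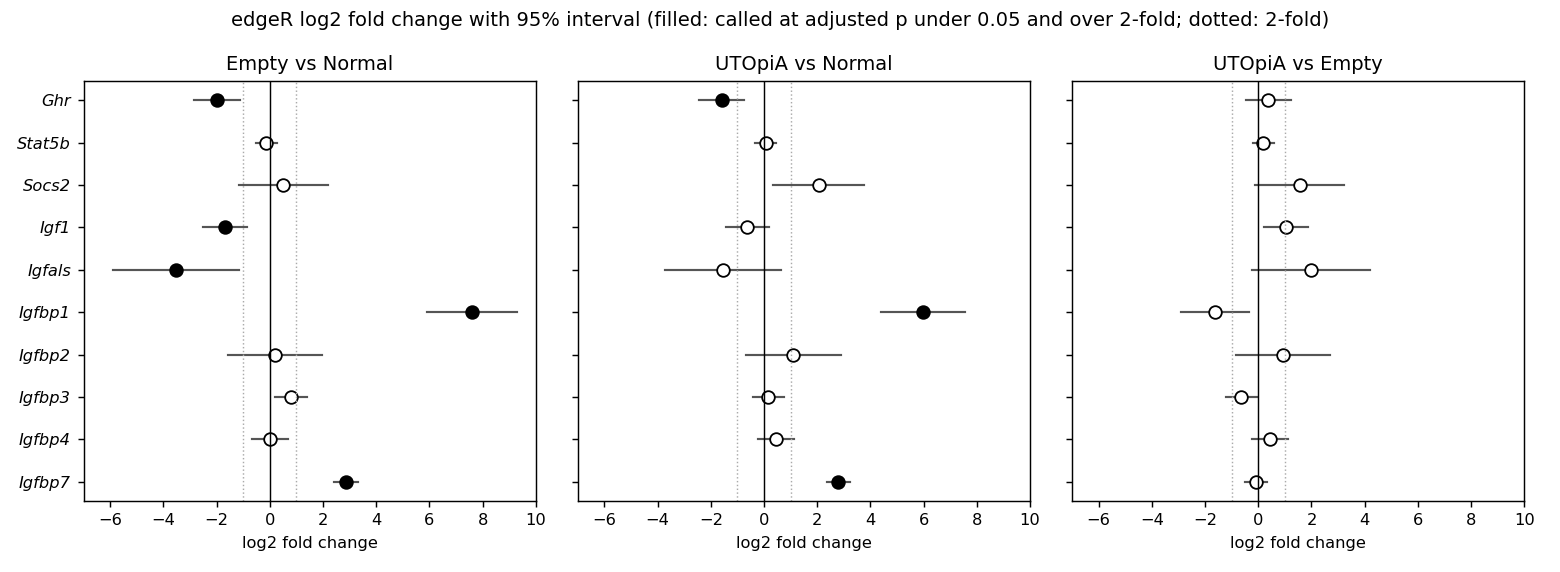
edgeR log2 fold change of each gene with its 95% interval in the 3 comparisons, filled where called at an adjusted p under 0.05 and over 2-fold, with dotted lines at 2-fold. Filled points are Ghr, Igf1, Igfals, Igfbp1 and Igfbp7 for the empty group and Ghr, Igfbp1 and Igfbp7 for the UTOpiA group, both against normal livers, and there are none between the ACLF groups.

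Together the transcripts of Igfbp1 to Igfbp7 summed to 808 ± 71.1 TPM in normal livers, 3265 ± 754 TPM in empty livers and 2214 ± 265 TPM in UTOpiA livers (mean ± SD, n = 3 each). TPM moves with the make-up of the library, and no sum was taken on the TMM scale. On that scale Igfbp4 averaged 1040, 1046 and 1410 normalised CPM in the same order, and Igfbp1 5.87, 1155 and 375. Igfbp4 made up 84.6% ± 2.72 of the TPM sum in normal livers, 30.5% ± 3.65 in empty livers and 51.6% ± 14.8 in UTOpiA livers. Igfbp1 made up 0.711% ± 0.486, 45.5% ± 11.1 and 20.2% ± 10.6 in the same order, with empty livers at 47.2%, 55.6% and 33.6% and UTOpiA livers at 14.6%, 32.4% and 13.7%. Igfbp7 made up 7.17%, 19.7% and 22.7%. The pool of normal livers was thus mostly Igfbp4, and that of ACLF livers was shared by Igfbp4, Igfbp1 and Igfbp7. The share of Igfbp1 in UTOpiA livers lay 25.2 percentage points below that in empty livers (-25.2), with no overlap. An exact permutation test gave p = 0.1 for it, the smallest possible, and 0.16 after adjustment over 24 such tests.

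**Figure D4:**
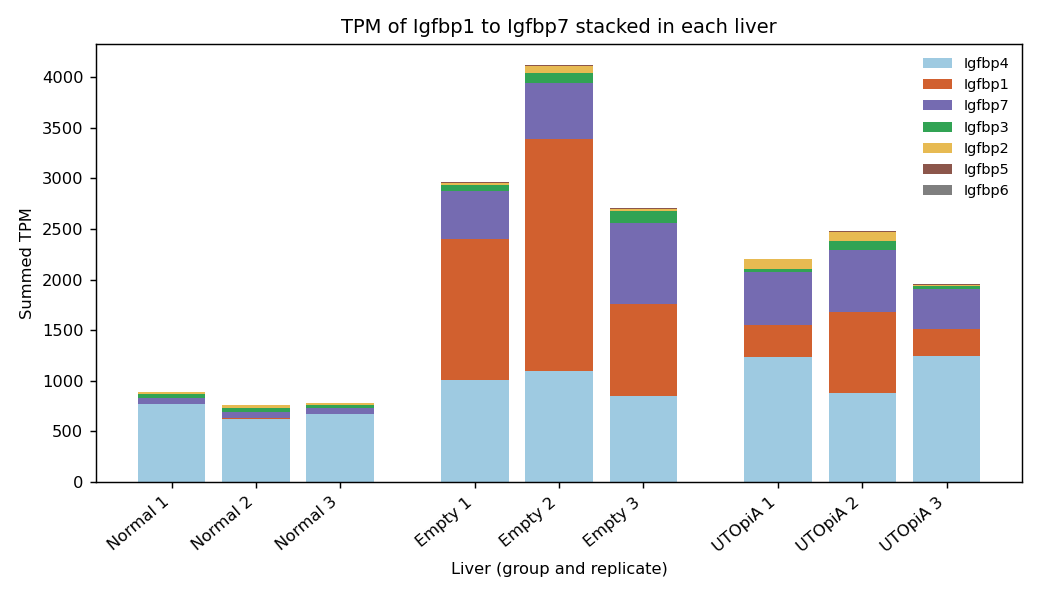
TPM of Igfbp1 to Igfbp7 stacked in each liver, so that the bar height is their sum. Normal bars are nearly all Igfbp4, and Igfbp1 takes 33.6% to 55.6% of the empty bars and 13.7% to 32.4% of the UTOpiA bars.

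The same livers stood out across members. In the empty group replicate 2 had the highest Ghr, Igf1, Igfals, Socs2 and Igfbp2 and also the highest Igfbp1. In the UTOpiA group replicate 2 had the lowest Ghr, Igf1, Igfals and Socs2 and the highest Igfbp1 and Igfbp3. Its median hepatocyte marker was the lowest of its group, at -1.12 against the normal mean on the log2 scale, beside -0.55 and -0.47 in the other UTOpiA livers.

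Of 16 further genes of growth hormone receptor signalling, 5 were called higher and none lower in empty livers, and 3 higher and none lower in UTOpiA livers, both against normal livers. Over all genes 20.7% were called higher in empty livers and 18.2% in UTOpiA livers, so the UTOpiA count lies at the background. Their median log2 fold change was 0.51 and 0.53 respectively, beside 0.04 and 0.05 over all genes. Socs3, an inhibitor of the receptor's signal that inflammatory cytokines induce, measured 10.3, 2.45 and 2.29 TPM in normal livers, 58.1, 305 and 60.03 TPM in empty livers and 33.9, 39.8 and 48.5 TPM in UTOpiA livers. It was higher by 4.31 in empty livers (edgeR adjusted p = 0.00406) and by 2.76 in UTOpiA livers (edgeR adjusted p = 0.0301) on the log2 scale. The UTOpiA livers all lay below the empty ones in TPM, but the groups overlapped on normalised CPM, and the difference of -1.56 was not called (edgeR adjusted p = 0.518). Stat3, which carries cytokine signals, was higher by 1.86 in empty livers (edgeR adjusted p = 0.00173) and by 1.71 in UTOpiA livers (edgeR adjusted p = 0.00364). Jak2, the kinase bound to Ghr, was higher by 1.71 and 1.14 (edgeR adjusted p = 0.000416 and 0.00389), while its receptor was lower. Socs1, another cytokine-induced inhibitor, was higher by 2.46 in empty livers (edgeR adjusted p = 0.0376) from counts of 8, 2 and 1 in normal livers and 11, 52 and 39 in empty livers. In UTOpiA livers it had 12, 6 and 3 counts and stood at 0.48 against normal livers (edgeR adjusted p = 0.705).

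Of 15 further genes that bind, receive or relay IGF and insulin signals, 12 could be tested, and 5 were called higher and 2 lower in empty livers against normal livers. In the UTOpiA group 3 were called higher and 1 lower. The shares over all genes were 20.7% higher and 11.1% lower for the empty group and 18.2% and 6.81% for the UTOpiA group, so the counts called lower lie near the background. Igfbp5, a binding protein of stellate cells and fibroblasts, rose from 0.107, 0.1805 and 0.0791 TPM in normal livers to 6.64, 8.40 and 10.3 TPM in empty livers and 2.96, 7.65 and 3.14 TPM in UTOpiA livers, a log2 fold change of 5.56 and 4.83 (edgeR adjusted p = 4.71e-05 and 8.90e-05). Stc1, an inhibitor of the protease that frees IGF from its binding proteins, was higher by 3.91 and 3.86 (edgeR adjusted p = 0.000905 and 0.00142). Its counts were low, at 5, 8 and 4 in normal livers, 62, 234 and 123 in empty livers and 93, 92 and 136 in UTOpiA livers. Igf1r, the IGF1 receptor, which hepatocytes scarcely express, had 2, 2 and 15 counts in normal livers and 52, 95 and 62 in empty livers, a log2 fold change of 2.75 (edgeR adjusted p = 0.0342). In UTOpiA livers it had 22, 130 and 13 counts and missed the call at 2.51 (edgeR adjusted p = 0.0566). Of the adaptors of the insulin receptor, Irs1 was lower, at -1.72 in empty livers (edgeR adjusted p = 0.000113) and -1.17 in UTOpiA livers (edgeR adjusted p = 0.000847), whereas Irs2 was higher by 2.48 in empty livers (edgeR adjusted p = 0.00533) and stood at 1.16 in UTOpiA livers (edgeR adjusted p = 0.109). Grb14, which inhibits the insulin receptor, was lower at -1.21 in empty livers (edgeR adjusted p = 0.00756), although its replicate 2 at 59.1 TPM reached the normal range of 59.0 to 67.9 TPM, which it did not on normalised CPM. In UTOpiA livers Grb14 stood at -0.58 (edgeR adjusted p = 0.136). None of the 12 was called between the ACLF groups.

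Of 16 liver genes known to depend on growth hormone, 11 matched 1 row each and were tested, and 5 were called lower and none higher in empty livers against normal livers. In UTOpiA livers 3 were called lower and 1 higher (Cux2). Over all genes 11.1% were called lower in empty livers, and 6.81% lower and 18.2% higher in UTOpiA livers. The median log2 fold change of the 11 was -1.83 in empty livers and -0.30 in UTOpiA livers. Cyp2c11, the male-specific cytochrome P450 of rat liver that pulsatile growth hormone maintains, fell from 28675, 32209 and 29162 counts in normal livers to 12, 105 and 6 in empty livers and 18, 2 and 11 in UTOpiA livers. Its log2 fold change was -10.17 and -11.84 (edgeR adjusted p = 0.000462 and 0.000504). Mup5, a major urinary protein, was lower at -6.50 in empty livers (edgeR adjusted p = 0.00583) and -4.89 in UTOpiA livers (edgeR adjusted p = 0.0184). Prlr, the prolactin receptor, measured 16.99, 30.6 and 27.9 TPM in normal livers, 0.574, 6.36 and 1.57 TPM in empty livers and 11.3, 2.52 and 9.09 TPM in UTOpiA livers, and was called in empty livers (-3.67, edgeR adjusted p = 0.00867) but not in UTOpiA livers (-1.95, edgeR adjusted p = 0.0859). Cyp2c13, another male-specific P450, was lower at -3.63 in empty livers (edgeR adjusted p = 0.0103) and stood at -2.35 in UTOpiA livers (edgeR adjusted p = 0.0568). Cyp2c and Mup genes have near-identical copies, so reads could be divided differently among them. Between the ACLF groups none of the 11 was called, with a median log2 fold change of 1.28 beside 0.00 over all genes.

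**Figure D5:**
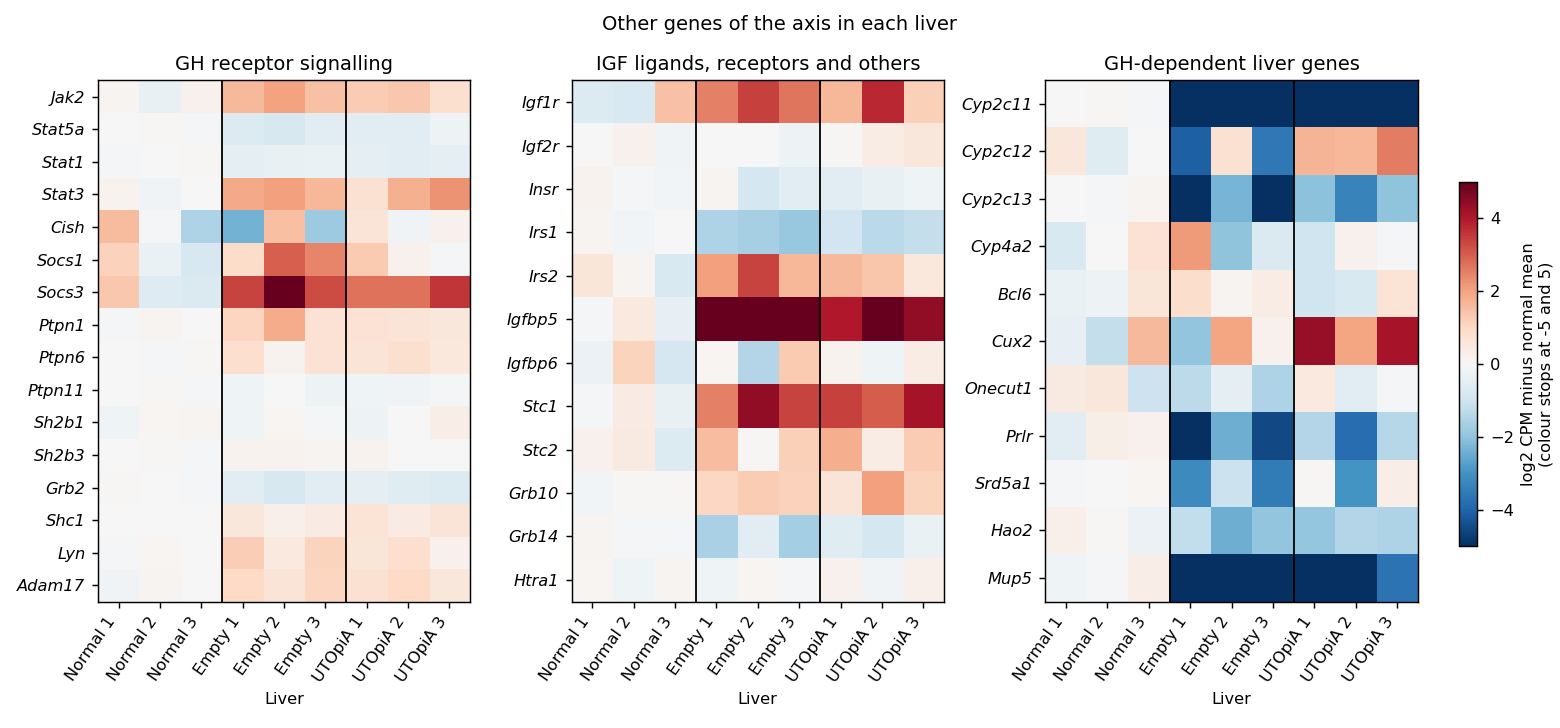
log2 CPM of the other tested genes of the axis in each liver minus the mean of the normal livers, red higher and blue lower, with the colour scale stopped at -5 and 5 and lines between groups. Cyp2c11 is deep blue in all 6 ACLF livers, Socs3 and Igfbp5 are red in all 6, and Stat5a, Ptpn11 and Grb2 stay pale.

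The genes whose log2 CPM over the 9 livers was most like that of Igf1 were Svip, Sil1, F13b, Pde3b and Cbs, with Pearson r from 0.987 to 0.995 over the 9 livers among 12783 genes. F13b, a hepatocyte-secreted clotting factor subunit, illustrates it with 201, 199 and 204 TPM in normal livers, 125, 153 and 91.8 in empty livers and 207, 140 and 195 in UTOpiA livers. Those most like Igfbp1 were Cttnbp2nl, Tnfrsf26, Sox9, Col1a1 and Zdhhc13, with r from 0.987 to 0.991, of which Sox9 marks bile duct cells and Col1a1 is a collagen of activated stellate cells. These likenesses describe 9 livers in 3 groups that differ strongly, and the points share libraries and group means.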

How the data were processed

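Libraries of 9 rat livers were assigned to the normal, empty and UTOpiA groups by their labels, 3 each. The authors deposited raw counts of reads per gene for 32883 genes and TPM of the same genes. The submitters' processing notes name Trimmomatic, HISAT2, featureCounts and the rat build rn6, whereas the paper names Cutadapt and the mouse build GRCm38. They also differ on the library kit, NEBNext in the labels and MGIEasy in the paper, both directional. The strand setting is not given in the sources used here.

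Counts were tested with edgeR 4.0.16 in R 4.3.3 (filterByExpr, 14089 genes kept, TMM, robust quasi-likelihood test, two-sided, all 9 libraries, 1 mean per group), with Benjamini-Hochberg adjustment over all genes tested. Calls needed an adjusted p under 0.05 and a change over 2-fold, as in the study. DESeq2 1.42.0, limma 3.58.1 on log2(TPM + 1), other filters and scalings, and leaving out each liver were alternatives. TPM, TPM shares and ratios within a liver were compared by two-sided exact permutation tests. The steps were tested on simulated data. No pair of replicates agreed within counting noise. Depth limits precision to counting error only at low counts.

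The members and gene lists were chosen with earlier results of these data known. Of the other lists, up to 4 called genes per direction with the largest change in the empty group against normal livers and a mean of at least 1 TPM were named, with the 5 genes most like Igf1 and Igfbp1. Promoters were read from RefSeq (GRCr8). The genotype of the organoids is not reported here.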

Additional observations from a re-analysis of the deposited data

How the results depend on the processing

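Over 20 alternatives for each of the 10 genes in each comparison (600 values), 565 kept their direction and side of the threshold, 15 were newly called, 2 lost the call and 18 turned direction. Igfals in the empty group against normal livers lost its call without a count filter (-3.53, edgeR adjusted p = 0.0633) and without replicate 3 of the empty group (-3.07, 0.0530). Socs2 in the UTOpiA group against normal livers was called under 8 of 20. Igfbp3 in the empty group against normal livers stayed uncalled under 15 of 20. None of the 10 was called between the ACLF groups under any alternative. The turned values were all uncalled. For the empty group against normal livers, Stat5b was 0.42 with library totals and 0.35, 0.37 and 0.35 in the limma fits, and between the ACLF groups it was -0.0016, -0.0023 and -0.0016 in the latter. The others turned only when 1 liver was left out, with values from -0.73 to 0.52 for Igfbp2 (lowest without empty replicate 2, also below 0 without normal replicate 3), -0.090 to 0.15 for Igfbp4 (below 0 without empty replicate 1 or 2 or normal replicate 2 or 3) and -0.85 to 1.07 for Socs2 (below 0 without empty replicate 2) in the empty group against normal livers. They ran from -0.025 to 0.12 for Stat5b (below 0 without normal replicate 3 or UTOpiA replicate 2) and -0.19 to 0.37 for Igfbp3 (below 0 without UTOpiA replicate 2) for UTOpiA against normal livers, and from -0.19 to 0.12 for Igfbp7 (above 0 without empty replicate 3) between the ACLF groups. The causes were not tested.

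Counts of all genes called moved as follows. In the empty group against normal livers, 4477 were higher and 682 lower with library totals, 1644 higher with at least 10 counts in every library, 3036 lower with no fold threshold, and 693, 753 and 688 lower in the limma fits (pseudocount 1, pseudocount 0.1 and no filter). In the UTOpiA group against normal livers, 486 were lower with library totals, 1384 higher with at least 10 counts, 2285 lower with no fold threshold, and 487, 527 and 471 lower in the limma fits, and with only the 6 libraries compared 2 of the 10 genes were lower, beside 1067 of all genes. Between the ACLF groups DESeq2 called 53 higher and 71 lower, and limma without a filter called 3 higher.

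Leaving out 1 liver at a time gave 2621 to 2981 genes higher and 1336 to 1776 lower in the empty group against normal livers, with 2 to 3 of the 10 lower. It gave 2091 to 2707 higher and 725 to 1104 lower in the UTOpiA group against normal livers, with 2 to 3 of the 10 higher and 1 to 2 lower. Between the ACLF groups it gave 0 to 32 higher (32 without UTOpiA replicate 2, 26 without empty replicate 2) and 0 to 22 lower. The Igfbp1 share differed by 39.7 to 50.7, -31.3 to -20.2 and 13.4 to 22.8 percentage points and the log2 ratio of Igfbp1 to Igf1 by 8.84 to 9.997, -3.34 to -2.08 and 6.17 to 7.44, in the order empty against normal, UTOpiA against empty and UTOpiA against normal.

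No label states that replicate numbers pair the livers. Correlations of deviations from the group mean ran from -0.18 to 0.06 for same-numbered livers and from -0.19 to 0.29 for the others. With 3 livers a group, these values cannot show whether same-numbered livers were handled together. With the replicate number as a block, 2746 genes were higher and 1532 lower for empty and 2344 and 897 for UTOpiA against normal livers, 0 between the ACLF groups, and no call of the 10 genes changed.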

Other observations

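Among the genes that depend on growth hormone, Cyp2c12, Cux2 and Cish are given here, chosen after their values were seen. Cyp2c12, the female-predominant cytochrome P450 that continuous growth hormone maintains, measured 191, 85.7 and 130 TPM in normal livers, 9.997, 312 and 16.3 TPM in the empty group and 533, 609 and 757 TPM in the UTOpiA group. Every UTOpiA liver lay above every other liver, while Cyp2c11 had at most 18 counts in any of them. By edgeR, Cyp2c12 was not called in the UTOpiA group against the empty group (log2 fold change 2.72, 95% interval 0.09 to 5.36, adjusted p = 0.469) nor against normal livers (1.95, adjusted p = 0.199). Reads of this gene may be shared with its near-identical relatives.

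Cux2, a transcription factor that is also female-predominant in rodent liver, measured 0.540, 0.300 and 2.28 TPM in normal livers, 0.217, 4.16 and 1.32 TPM in the empty group and 20.1, 4.39 and 13.4 TPM in the UTOpiA group. It was called higher in the UTOpiA group than in normal livers (3.34, edgeR adjusted p = 0.0387) and stood at 3.02 against the empty group (edgeR adjusted p = 0.408). Not all such genes of the list moved in this way. Prlr, which is also female-predominant in rat liver, lay below every normal liver in the UTOpiA group (-1.95, edgeR adjusted p = 0.0859), and the male-specific Cyp2c13 stood at 1.28 against the empty group (edgeR adjusted p = 0.632). Cish, another feedback inhibitor that Stat5b induces, measured 2.31, 35.9 and 3.89 TPM in the empty group and 18.2, 12.1 and 10.4 TPM in the UTOpiA group, and replicate 2 of the empty group was again the highest of its group, as for Socs2 and Igfals. In normal livers Cish measured 27.4, 8.83 and 3.00 TPM, and no comparison of it was called.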
